A study of Homo sapiens with 16 samples.

Results

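Aminoacyl-tRNA synthetases, the enzymes that load each tRNA with its amino acid, were followed through ribosome profiling and RNA-seq of breast cancer lines. The 37 member genes were chosen by gene name. They comprise 21 cytosolic genes, which are those with symbols ending in 1 together with FARSA, FARSB, AIMP1 and AIMP2, and 16 mitochondrial genes with symbols ending in 2. Between them, the tables of the study list 10823 transcripts, in which each member found has 1 transcript. All 21 cytosolic members were found in both tables. Of the mitochondrial members, 15 were found in the table that holds parental and MDA-LM2 values and 14 in that of the knockdown; LARS2 was not analysed here in either, and PARS2 not in the knockdown. Measured were ribosome-protected footprints (RPF), the mRNA fragments that translating ribosomes shield from nuclease, and RNA from the same lines. Translational efficiency (TE) is the RPF value divided by the RNA value. There were 4 lines with 2 RPF and 2 RNA libraries each, 16 libraries in all. Parental cells are MDA-MB-231, a human triple-negative breast cancer line, and MDA-LM2 cells are a highly lung-metastatic derivative of it obtained by selection in vivo. sgControl and sgHNRNPC are MDA-MB-231 cells that both carry the CRISPR interference machinery, dCas9 fused to the KRAB repressor, with a control guide or with a guide that represses HNRNPC, an RNA-binding protein of the nucleus. Each comparison rests on a single derivative line against a single control line, so that line and condition cannot be told apart.

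Synthetases attach an amino acid to its tRNA at the cost of ATP, and the charged tRNA is handed to the ribosome by elongation factors. Cytosolic and mitochondrial translation use separate enzymes for most amino acids, all encoded in the nucleus; GARS1 and KARS1 serve both compartments. In the cytosol, EPRS1, IARS1, LARS1, MARS1, QARS1, RARS1 and KARS1 assemble with the scaffold proteins AIMP1 and AIMP2 into the multi-synthetase complex, whereas the other cytosolic enzymes act outside it. Phenylalanyl-tRNA synthetase is built from the subunits FARSA and FARSB. Many cytosolic synthetase genes are known targets of ATF4, the transcription factor of the amino acid response, which cells use when charged tRNA runs short.

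The tables give reads per transcript scaled by a size factor for each library, called values below. The summed RNA value of a library ranged from 7023013 to 8326052 for parental and MDA-LM2 cells and from 5415889 to 5559039 for the knockdown lines. The RPF sums were 650736 to 679726 and 158011 to 167928, so knockdown footprints were the sparsest. In the knockdown RNA, the top 2 transcripts held 22.6% to 25.8% of each library. The MDA-LM2 RNA replicates stood further apart than those of other lines (SD of the log2 difference 0.31, against 0.17 in parental cells and 0.14 in sgControl and sgHNRNPC cells). Of the markers of the line, VIM, CD44, KRT8, KRT18, ERBB2 and EPCAM were listed in both tables, EPCAM at no more than 86.9. ESR1, PGR and CDH1 were not listed, nor were PTPRC, PECAM1, ADIPOQ and ALB of other cell types. In bulk libraries such as these, fewer cells of a type and less RNA per cell cannot be told apart.

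Levels were first compared between members per length, with RNA per kilobase of transcript and RPF per kilobase of coding sequence. Cytosolic synthetase mRNAs were abundant. In parental cells their median was 344.5 RNA per kb, against 84.3 for the mitochondrial class and 75.5 over the 10562 transcripts with a known length. In sgControl cells these medians were 237, 38.1 and 69.8. By the ratio of their medians, the classes were further apart on the footprint scale in parental cells, but not in sgControl cells. The median RPF per coding kb in parental cells was 84.9 for the cytosolic class and 14.2 for the mitochondrial class, with 19.8 over all transcripts. In sgControl cells these medians were 21.8, 3.50 and 6.77. All 21 cytosolic members lay above that overall median in each of the 4 lines. Of the mitochondrial members, 2 of 15 did in parental cells (IARS2 and YARS2) and 3 of 14 in sgControl cells.

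Summed without regard to length, the cytosolic class took 0.601% to 0.736% of all footprints in parental and MDA-LM2 cells and 0.647% to 0.751% in the knockdown lines. Its share of RNA was 0.247% to 0.321% and 0.291% to 0.322%. The mitochondrial class held 0.0676% to 0.0857% of footprints over both tables and 0.030% to 0.0528% of RNA. Each class thus held a larger share of footprints than of RNA in every library.

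Among cytosolic members the order of RNA levels was not that of footprints. FARSA, the catalytic subunit of phenylalanyl-tRNA synthetase, led in parental RNA at 843 ± 35.4 per kb (SD, n = 2), whereas its partner subunit FARSB stood last of the cytosolic class at 45.4 ± 6.7. Their footprint densities, 117 ± 14.6 and 47.2 ± 5.89 per coding kb, lay much closer. The RNA gap depends on length, as the listed transcripts have 1811 bases for FARSA and 6761 for FARSB. Without length scaling, the parental RNA means were 1527 and 307. TARS1, which charges tRNA with threonine, led in sgControl RNA at 682 ± 5.54 per kb and was above GARS1, the glycine enzyme, at 547 ± 12.5, a gap larger than the spread of either. In parental footprints GARS1 (153 ± 7.74) and TARS1 (148 ± 8.79) did not differ beyond their spread. Length-scaled TE, the ratio of those densities, was highest for the scaffold AIMP1 in parental cells (1.82 ± 0.06), followed by FARSB (1.04 ± 0.024). It was 0.234 at the cytosolic median, 0.181 over the 14 mitochondrial members that passed a minimum mean of 10 in both kinds of library, and 0.259 over all transcripts that passed. The AIMP1 transcript listed is not the MANE Select isoform, so its length may not be that of the isoform the cells used. The same holds for 10 members in all. FARSB is listed as its MANE Select isoform, and its length-scaled TE rests on that length of 6761 bases.

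**Figure D1:**
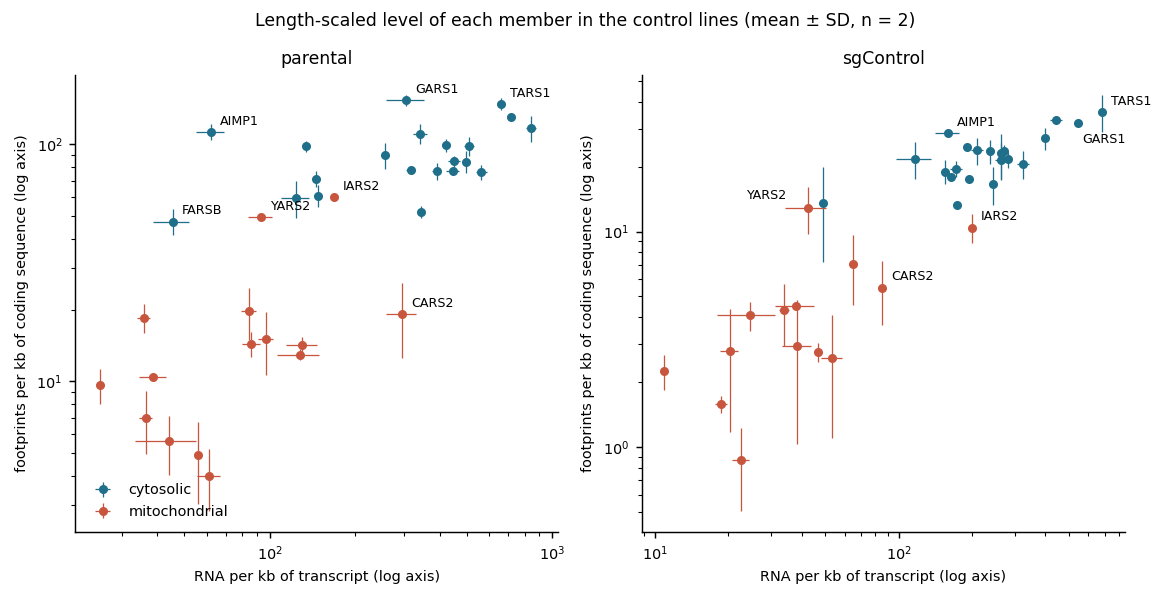
Footprints per kb of coding sequence against RNA per kb of transcript for each member in parental and sgControl cells, both on log axes; points are means of 2 libraries and bars are SDs. Most cytosolic members sit at the upper right. Their median in parental cells is 84.9 footprints per coding kb, against 14.2 for mitochondrial members. In parental RNA per kb, FARSB (45.4) and AIMP1 (61.9) lie further left, below the mitochondrial median of 84.3. FARSB is also at the left in sgControl cells (48.8). IARS2 and YARS2 are the mitochondrial members nearest to the cytosolic ones in footprints.

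The knockdown was examined next. HNRNPC itself had RNA values of 2162 and 2146 in sgControl and 1147 and 1183 in sgHNRNPC libraries (log2 change −0.89 ± 0.051, SE). With the target repressed, RNA of cytosolic synthetases was on balance higher and RNA of mitochondrial ones was not. By limma with Benjamini-Hochberg adjustment over all 8980 transcripts, 8 of 21 cytosolic members rose, 1 fell and 12 did not pass the test; over all transcripts 3.41% rose and 6.64% fell. None of the 14 mitochondrial members rose and 1 fell. An unadjusted p under 0.05 was found for 13 cytosolic members and 1 mitochondrial member, where 22.5% of all transcripts had one. The median log2 change was 0.07 in the cytosolic class, −0.095 in the mitochondrial class and −0.021 over all transcripts. The median SE was 0.067 for cytosolic and 0.17 for mitochondrial members, against 0.11 over all transcripts. The tests of mitochondrial members were thus less precise, and those of cytosolic members more precise, than is usual over all transcripts. The shares called are therefore not compared at like precision.

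Both sgHNRNPC libraries lay above both sgControl libraries for 10 cytosolic members and below them for 4, where 21.7% and 28.9% of all transcripts did so. For the mitochondrial class these counts were 1 and 3. The summed RNA of cytosolic members was 15918 and 15755 in sgControl and 17535 and 17297 in sgHNRNPC libraries, and that of mitochondrial members was 1899 and 1865 against 1689 and 1670. In both sums the lines did not overlap, and they moved apart in opposite directions. Most of the fall in the mitochondrial sum came from IARS2, whose values are given below, so that sum largely follows a single gene. The mean log2 value of the mitochondrial class, in which members weigh alike, was 6.59 and 6.56 in sgControl and 6.47 and 6.48 in sgHNRNPC libraries. How many members rose or fell depended on the scaling of libraries: after quantile normalization 9 cytosolic members rose and none fell, and 355 of 765 calls over all transcripts were rises, against 306 of 902 with the deposited scaling.

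**Figure D2:**
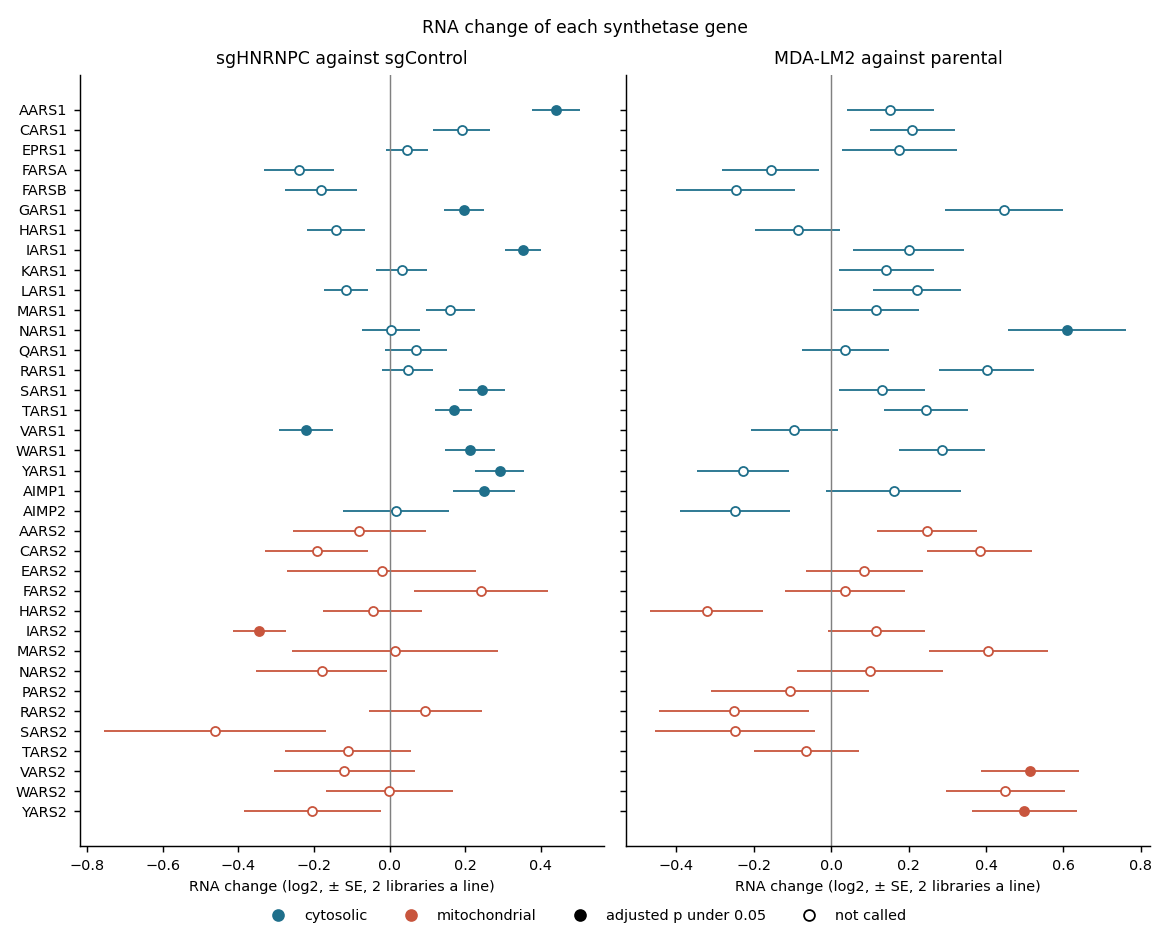
Log2 RNA change (limma estimate from 2 libraries a line) of each synthetase gene in the knockdown (left) and in MDA-LM2 (right), with SE bars; PARS2 has no point in the knockdown; filled points passed adjusted p under 0.05 by limma. In the knockdown the filled points are 9 cytosolic members, of which only VARS1 lies left of 0, and the mitochondrial IARS2; in MDA-LM2 they are NARS1, VARS2 and YARS2, all right of 0.

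Most of the members that rose act outside the multi-synthetase complex: 6 of these 12 enzymes rose and VARS1 fell (median change 0.18), whereas 2 of the 9 genes of the complex rose (median 0.047). AARS1, which charges tRNA with alanine (chr16:70252298-70289506, minus strand, 21 exons, hg38), had RNA values of 672 and 663 in sgControl and 866 and 948 in sgHNRNPC libraries. The lines did not overlap, and the change was 0.44 ± 0.064 on the log2 scale, or 1.36-fold (adjusted p = 2.3e-08, limma). It was the largest rise of any member. YARS1, the tyrosine enzyme, had values of 704 and 669 against 800 and 880, again without overlap (0.29 ± 0.065, adjusted p = 5.5e-04, limma).

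SARS1, the serine enzyme, was at 866 and 801 in sgControl and at 988 and 985 in sgHNRNPC libraries, which nearly coincided (0.24 ± 0.061, adjusted p = 0.0024, limma). WARS1, the tryptophan enzyme, was at 673 and 625 against 777 and 727 (0.21 ± 0.067, adjusted p = 0.022, limma). The lines stood apart for both genes, though for WARS1 the nearest values, 673 and 727, were about as far apart as the replicates of either line. WARS1 is also known as an interferon-induced gene. Of 17 interferon-stimulated genes tested in the knockdown, 1 rose and 1 fell, where 3.41% and 6.64% of all transcripts did. Their median was 0.035, and the part of interferon in the WARS1 value was not tested. GARS1 and TARS1 rose by less, with changes of 0.20 ± 0.053 (adjusted p = 0.0054) and 0.17 ± 0.049 (adjusted p = 0.011, both limma).

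VARS1, the valine enzyme, went the other way. Its RNA values were 632 and 645 in sgControl and 553 and 542 in sgHNRNPC libraries, below both controls (−0.22 ± 0.071, adjusted p = 0.027, limma). The remaining free-standing enzymes did not pass the test: CARS1 had a change of 0.19 and NARS1 of 0.0042, while HARS1 (−0.14) and both phenylalanine subunits, FARSA (−0.24) and FARSB (−0.18), were below 0, each with no overlap between the lines.

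Within the complex, IARS1 and AIMP1 rose. IARS1, which charges tRNA with isoleucine (chr9:92210207-92293700, minus strand, 34 exons), had values of 1815 and 1893 in sgControl and 2431 and 2302 in sgHNRNPC libraries (0.35 ± 0.048, adjusted p = 1.9e-09, limma). The lines were further apart than the replicates of either. AIMP1 was at 413 and 353 against 455 and 453 (0.25 ± 0.083, adjusted p = 0.034, limma); its control replicates lay further apart than its sgHNRNPC replicates. The other 7 complex genes ran from −0.12 (LARS1, the leucine enzyme) to 0.16 (MARS1, the methionine enzyme), with EPRS1, KARS1, QARS1, RARS1 and AIMP2 between 0.017 and 0.07.

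In the mitochondrial class only IARS2 passed the test. This mitochondrial isoleucine enzyme (chr1:220094132-220148041, plus strand, 23 exons) had RNA values of 703 and 709 in sgControl and 569 and 543 in sgHNRNPC libraries, with no overlap (−0.34 ± 0.069, or 0.788-fold, adjusted p = 9.4e-05, limma). SARS2 had a larger estimate, −0.46 ± 0.29, at values of only 35 and 31 against 22.1 and 25.3. FARS2 was the sole mitochondrial member with both sgHNRNPC values above both controls (79.5 and 76.6 against 101 and 84.8). The others ran from −0.20 (YARS2) to 0.094 (RARS2).

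Cytosolic and mitochondrial enzymes for the same amino acid were then set side by side. In 10 of 13 such pairs the cytosolic gene had the higher RNA change in the knockdown, with a median difference of 0.21 on the log2 scale. The difference was 0.70 for isoleucine (IARS1 at 0.35, IARS2 at −0.34), 0.70 for serine and 0.52 for alanine. Among the pairs, histidine, arginine and valine ran the other way, by at most 0.10. Phenylalanine was not paired, as its cytosolic enzyme is built from the subunits FARSA and FARSB. It also ran the other way, and further: FARSA and FARSB were at −0.24 and −0.18, and the mitochondrial FARS2 was at 0.24. HARS1 and HARS2, which lie head to head on chromosome 5 with 87 bases between their transcripts, were at −0.14 and −0.045. These are descriptions of estimates, and the differences between partners were not tested.

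The calls differed in how far they rested on a single library. AARS1, IARS1 and IARS2 were called whichever replicate was left out. SARS1 lost its call without sgControl replicate 2, and YARS1 without sgHNRNPC replicate 2. GARS1 lost it without either of these, and WARS1 without sgControl replicate 2 or sgHNRNPC replicate 1. TARS1 was called only without sgHNRNPC replicate 2 and AIMP1 only without sgControl replicate 1. VARS1 was called in no such fit. The number of members called was 8 without sgControl replicate 1, 4 without sgControl replicate 2 and 6 without either sgHNRNPC replicate, against 10 with all libraries. Calls over all 8980 transcripts also became fewer: they were 529 and 693 without sgControl replicate 1 or 2 and 593 and 401 without sgHNRNPC replicate 1 or 2, against 902.

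As several synthetase genes are known targets of ATF4, the promoters of the members were searched for the core of the CCAAT-enhancer-binding protein and ATF response element, spelled as TGATG, any base and AA, on both strands. Promoters were RefSeq windows on GRCh38.p14 from 250 bases before to 50 bases after the annotated start. Of the 27305 genes with a window, 4.46% held the motif. It was found in 7 of 18 cytosolic members and in 1 of 14 mitochondrial members with a window; LARS1, VARS1, YARS1, AARS2 and VARS2 had no window. The matches are printed here because 4 of them belong to genes that rose in the knockdown (AARS1, GARS1, IARS1 and TARS1), each 5′ to 3′ along the strand of the gene, with the motif in capitals.
AARS1, chr16:70289675-70289704, minus strand: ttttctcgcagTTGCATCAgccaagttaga
GARS1, chr7:30594834-30594863, plus strand: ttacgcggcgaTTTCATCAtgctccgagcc
IARS1, chr9:92293692-92293721, minus strand: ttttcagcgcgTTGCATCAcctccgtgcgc
TARS1, chr5:33440956-33440985, plus strand: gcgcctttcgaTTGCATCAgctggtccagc
CARS1, chr11:3057407-3057436, minus strand: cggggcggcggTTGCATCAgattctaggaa
MARS1, chr12:57488053-57488082, plus strand: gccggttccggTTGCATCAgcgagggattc
NARS1, chr18:57621804-57621833, minus strand: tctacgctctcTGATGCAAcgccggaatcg
YARS2, chr12:32756076-32756105, minus strand: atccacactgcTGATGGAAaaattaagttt

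In 6 of these 8 windows, all cytosolic, the free base of the motif was C; that form was held by 1.08% of all genes. The match began within 33 bases of the annotated start for GARS1, IARS1, CARS1, MARS1, NARS1 and TARS1, and 187 and 197 bases before it for AARS1 and YARS2. CARS1 and MARS1 had RNA changes of 0.19 and 0.16 in the knockdown without passing the test (adjusted p of 0.092 and 0.094, limma), and the NARS1 estimate was 0.0042. A match describes letters in a window and not a bound site. SARS1, WARS1 and AIMP1 rose and held no match in their windows, from which nothing follows about ATF4.

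Genes of the amino acid response outside the family were examined with a list of 35. In the knockdown 31 were tested in RNA. Of these, 11 rose and 1 fell, where 3.41% and 6.64% of all transcripts did. Their median was 0.20, against −0.021 over all transcripts. The called genes with the largest changes were NUPR1, a stress-induced chromatin protein (22.3 and 19.7 against 76.8 and 55.6; 1.598 ± 0.26), ASNS, which makes asparagine (244 and 241 against 399 and 438; 0.78 ± 0.093), and PHGDH, the entry enzyme of serine synthesis (42.4 and 42.4 against 66.2 and 67.3; 0.64 ± 0.22). In all 3 the lines stood apart. ATF4 RNA, named after its values were seen, was 1966 and 2023 in sgControl and 2646 and 2747 in sgHNRNPC libraries (0.43 ± 0.046, adjusted p = 3.1e-14, limma). Among 16 tRNA charging partners tested, such as elongation factors, only XPOT rose and none fell (median 0.0081). XPOT, which exports tRNA from the nucleus, had values of 2241 and 2238 against 3236 and 3176 (0.52 ± 0.045).

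Footprints were tested over 4283 transcripts that passed a mean of 10 in both kinds of library, which 21 cytosolic members and only 2 mitochondrial ones, IARS2 and YARS2, did; 47.7% of all transcripts passed. No member was called (0.0233% of all tested were), while 7 cytosolic members had an unadjusted p under 0.05, where 7.68% of all did. The estimates leaned upward: 18 of 21 cytosolic members were above 0, with a median of 0.21 against 0.022 over all tested, and 17 had the same sign in footprints as in RNA. Both sgHNRNPC libraries were above both controls in 12 of 21 and below them in 1, against 20.8% and 17.1% of all transcripts. The summed cytosolic footprints were 1030 and 1065 in sgControl and 1179 and 1261 in sgHNRNPC libraries. In the mitochondrial class the sums overlapped, at 114 and 125 against 109 and 128.

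LARS1 (chr5:146113034-146182650, minus strand, 32 exons) had the lowest footprint estimate, followed at a distance by VARS1 (−0.20). Its RPF values were 75.9 and 90.6 in sgControl and 39.9 and 48.9 in sgHNRNPC libraries, with no overlap (−0.89 ± 0.19, or 0.539-fold, adjusted p = 0.11, limma). Its RNA overlapped between the lines, at 1162 and 1097 against 1104 and 984. The footprint call appeared with a minimum mean of 50, with equal totals, with quantile normalization, with robust moderation, with a replicate block and without sgHNRNPC replicate 2. Over all settings and omissions tried the adjusted p ran from 8.1e-04 to 0.999.

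AARS1, the member with the largest RNA rise, also had the highest RPF estimate. Its footprints were 51.6 and 50.3 in sgControl and 67.9 and 92.1 in sgHNRNPC libraries (0.62 ± 0.19, adjusted p = 0.41, limma), apart between lines but widely spread in sgHNRNPC cells. Without sgHNRNPC replicate 1 it was called, at 0.84. IARS1 footprints were 111 and 93.8 against 132 and 126, and those of NARS1, whose RNA overlapped between the lines, were 34.1 and 30.2 against 48.1 and 48.5. For IARS2, whose RNA fell, footprints overlapped, at 35.1 and 28.3 against 30.2 and 36.8.

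**Figure D3:**
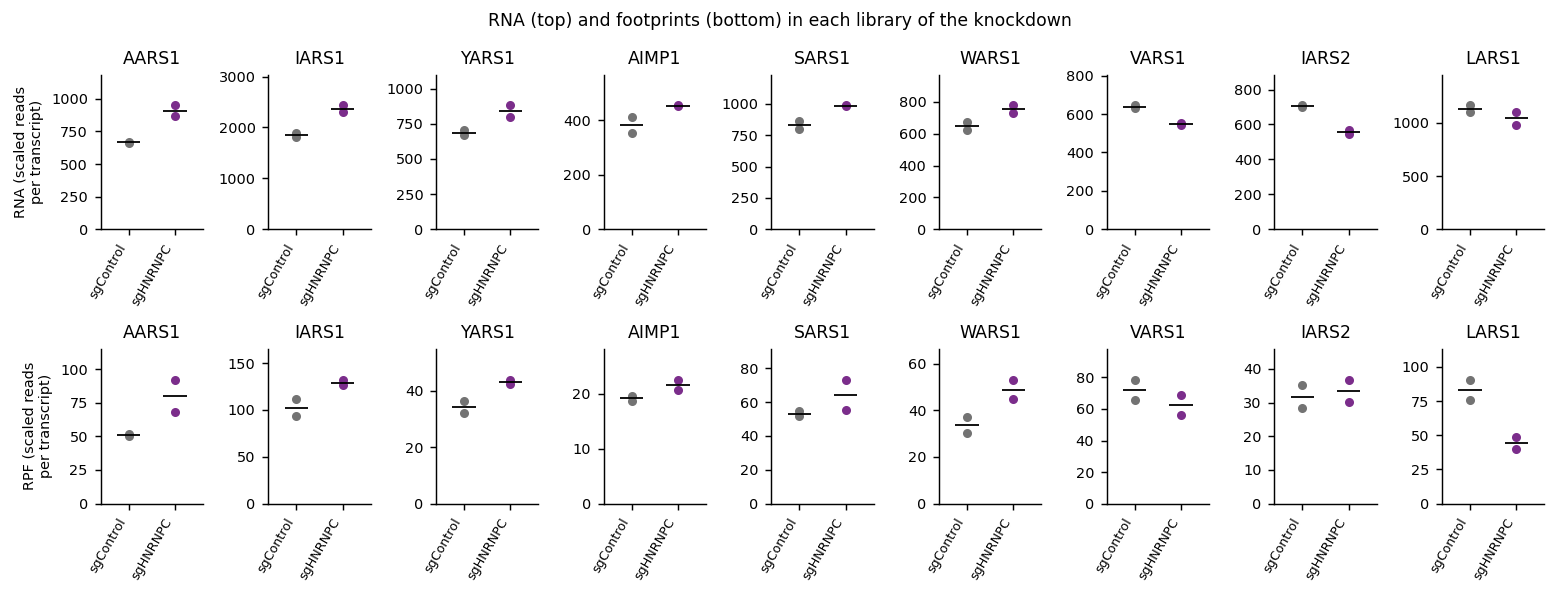
RNA (top row) and footprint values (bottom row) in each library of sgControl and sgHNRNPC cells for the 8 members with the largest called RNA changes and for LARS1; each point is a library, bars are means, and every axis starts at 0. AARS1 and IARS1 are higher in both rows, and IARS2 is lower in RNA and overlaps in footprints. LARS1 is lower in footprints without being called, and its RNA overlaps between the lines, with an estimate of −0.12.

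TE was tested as the footprint change less the RNA change over all 8 libraries. No member was called in the knockdown, as no transcript of 4283 was (0%); 2 cytosolic members, LARS1 and NARS1, had an unadjusted p under 0.05, where 7.75% of all did. LARS1 TE, the ratio of the values, was 0.0653 and 0.0826 in sgControl and 0.0362 and 0.0498 in sgHNRNPC libraries, without overlap (−0.78 ± 0.19 on the log2 scale, adjusted p = 0.57, limma). The study tested TE by logistic regression, in which reads and not libraries are the units. A simpler form of that test was run here, with the deposited values summed over replicates and taken as reads. It is not the study's own call. It called LARS1 (adjusted p = 0.023, logistic regression, adjusted over the 4283 transcripts tested) and no other member, and 0.257% of all transcripts. GARS1 TE was 0.0525 and 0.054 in sgControl and 0.0669 and 0.0596 in sgHNRNPC libraries (0.24 ± 0.13, adjusted p = 0.64, limma). NARS1, with footprints under a mean of 50, had a TE estimate of 0.57 ± 0.18.

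MDA-LM2 and parental cells were compared in the same way, to ask how the family differs between the highly and the poorly metastatic line. Here 1 of 21 cytosolic members, NARS1, and 2 of 15 mitochondrial members, VARS2 and YARS2, were higher in RNA and none was lower. These are 4.76% and 13.3% of the members of each class, and over all 10799 transcripts 6.61% were called higher and 10.0% lower. Unadjusted p-values under 0.05 were found for 4 cytosolic and 5 mitochondrial members, where 32.5% of all transcripts had one. Median changes were 0.15 in the cytosolic class and 0.10 in the mitochondrial class, with −0.017 over all transcripts. Both MDA-LM2 libraries exceeded both parental ones in 10 cytosolic and 6 mitochondrial members, against 29.0% of all transcripts, and lay below them in 4 and 2, against 32.8%.

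NARS1, which charges tRNA with asparagine (chr18:57600656-57621836, minus strand, 14 exons), had RNA values of 315 and 370 in parental and 463 and 585 in MDA-LM2 libraries (0.61 ± 0.15, or 1.53-fold, adjusted p = 0.030, limma). VARS2, the mitochondrial valine enzyme, was at 199 and 200 against 285 and 286, the replicates nearly coinciding (0.51 ± 0.13, adjusted p = 0.028, limma). YARS2, the mitochondrial tyrosine enzyme, was at 210 and 184 against 285 and 272 (0.50 ± 0.14, adjusted p = 0.041, limma). The lines did not overlap for any of these genes. Their cytosolic counterparts VARS1 and YARS1 were below 0, at −0.095 and −0.23, with both MDA-LM2 values under both parental ones.

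Next in order of adjusted p were RARS1, the arginine enzyme (0.40, adjusted p = 0.059), GARS1 (0.45, adjusted p = 0.081) and WARS2 (0.45, adjusted p = 0.082, all limma). The lowest estimate was that of HARS2, at −0.32 ± 0.15. WARS1 had an estimate of 0.29 (adjusted p = 0.12, limma). In MDA-LM2 RNA 6 of 18 interferon-stimulated genes fell and none rose, where 10.0% and 6.61% of all transcripts did.

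These RNA calls depended on the replicates and on the scaling. Without parental replicate 1 no member was called, without parental replicate 2 only NARS1, and without MDA-LM2 replicate 1 or 2 there were 17 and 12 calls, of which 4 and 2 were lower. Calls over all 10799 transcripts followed the same course: they were 725 and 851 without parental replicate 1 or 2 and 5046 and 3368 without MDA-LM2 replicate 1 or 2, against 1796. After rescaling to equal totals 11 members were called, all higher, but that rescaling raised the median of all transcripts by 0.17, and 1398 of its 2072 calls over all transcripts were rises, against 714 of 1796 with the deposited scaling. The cytosolic median less the mitochondrial one was 0.052 with the deposited scaling, 0.055 with equal totals and 0.18 after quantile normalization. It was not stable across omissions, at 0.084 without parental replicate 2 but −0.042 without parental replicate 1, −0.099 and −0.0071 when MDA-LM2 replicate 1 or 2 was left out. Across 8215 transcripts with a known length, the RNA change between the lines had a Pearson correlation of 0.21 with log2 transcript length, and the difference between the MDA-LM2 replicates one of 0.34; the transcripts share the libraries, and the part of length in the members' values was not tested.

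In MDA-LM2 footprints, TARS1 and NARS1 were called higher and no member lower, of 21 cytosolic and 14 mitochondrial members tested, where 5.00% and 7.03% of 8393 transcripts were called higher and lower. TARS1 had RPF values of 321 and 349 in parental and 409 and 429 in MDA-LM2 libraries (0.32 ± 0.098, adjusted p = 0.026, limma). NARS1 had 85.4 and 110 against 128 and 138 (0.45 ± 0.14, adjusted p = 0.036, limma), and was thus higher in RNA and in footprints. For both genes the lines stood apart. The TARS1 call was lost without parental replicate 1 or MDA-LM2 replicate 2. That of NARS1 was kept only without parental replicate 2. Class medians were 0.15 and 0.24, with −0.01 over all transcripts, and 17 of 21 cytosolic and 11 of 14 mitochondrial members were above 0. An unadjusted p under 0.05 was found for 8 and 2 members, where 24.6% of all transcripts had one. Both MDA-LM2 libraries were above both parental ones in 11 cytosolic and 7 mitochondrial members, against 25.7% of all, and below them in 1 and 2, against 27.6%.

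The mitochondrial estimates ran from −0.65 ± 0.42 (NARS2, the mitochondrial asparagine enzyme) to 0.63 ± 0.36 (AARS2, the mitochondrial alanine enzyme), at footprint values of 6.14 to 15.5 and 9.41 to 18.9. The cytosolic ones ran from −0.23 (YARS1) to 0.45 (NARS1). In 4 of 13 pairs of enzymes for the same amino acid the cytosolic gene had the higher footprint change, and in RNA in 8 of 14 pairs. In RNA, EPRS1 was paired with both EARS2 and PARS2 and had the higher change in both cases. Phenylalanine was again not paired. FARSA and FARSB had RNA changes of −0.16 and −0.25, against 0.036 for FARS2, and footprint changes of −0.027 and 0.031, against 0.24. With equal totals 6 members were called and 566 of 1043 calls over all transcripts were rises, against 420 of 1010.

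**Figure D4:**
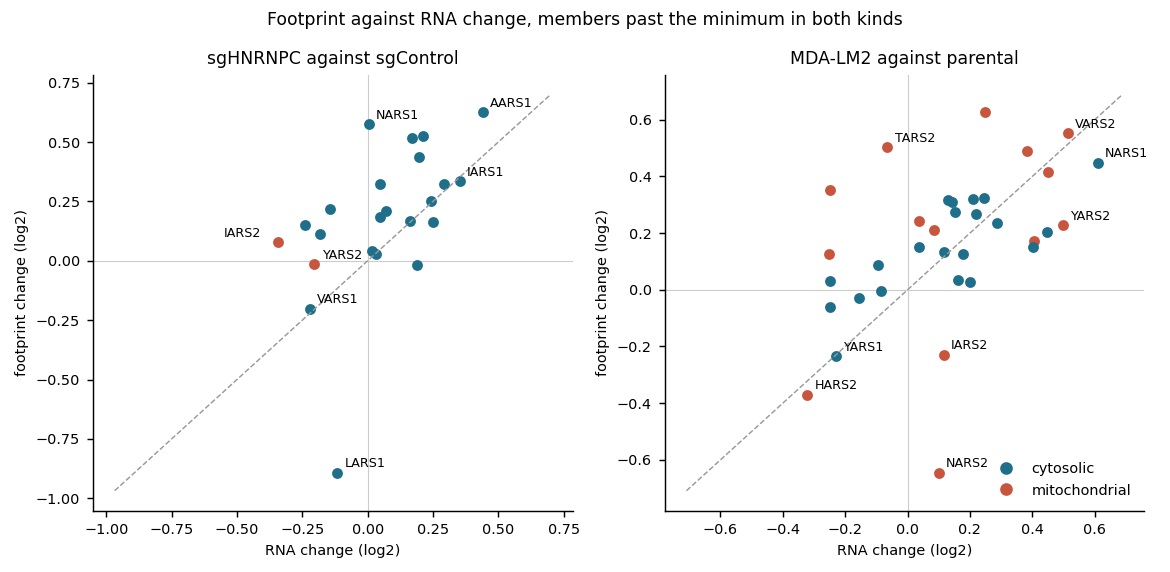
Log2 footprint change against log2 RNA change of each member that passed the minimum in both kinds of library, in the knockdown (left) and in MDA-LM2 (right); the dashed line marks equal change. In the knockdown LARS1 lies far below the line and NARS1 above it, and in MDA-LM2 the mitochondrial NARS2 lies furthest below it, at a footprint change of −0.65.

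No member was called in TE between MDA-LM2 and parental cells by limma (0.0357% of all tested were) or by logistic regression (2.16%); by limma only TARS2, at 0.57 ± 0.25, had an unadjusted p under 0.05, where 5.42% of all did. IARS2 TE was 0.297 and 0.313 in parental and 0.243 and 0.237 in MDA-LM2 libraries, apart between lines (−0.35 ± 0.18, adjusted p = 0.90, limma). RARS1 TE was 0.645 and 0.714 against 0.587 and 0.554, likewise apart (−0.25 ± 0.18, adjusted p = 0.93, limma). The class medians were 0.078 and 0.071 against 0.033 over all transcripts, and with equal totals both were below 0, as was the median of all transcripts.

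Of the response list, 9 of 32 genes rose and 4 fell in MDA-LM2 RNA, where 6.61% and 10.0% of all transcripts did. Their median was 0.18, against −0.017 over all transcripts. The called genes with the largest changes were PHGDH (59.8 and 58 against 608 and 693; 3.44 ± 0.14), NUPR1 (26.6 and 39 against 245 and 227; 2.84 ± 0.21) and GDF15, a stress-induced cytokine (60.9 and 53 against 33.8 and 22.2; −1.02 ± 0.26). Of the 18 tRNA charging partners tested, TRNT1, which adds the CCA end to tRNA, rose (47.6 and 38 against 75.2 and 77.1; 0.83 ± 0.20) and none fell.

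The knockdown and the MDA-LM2 comparison share no library. Of the 21 cytosolic members, 14 had RNA estimates above 0 in both, 4 below 0 in both (FARSA, FARSB, HARS1 and VARS1) and 3 opposite signs. Of the 14 mitochondrial members in both tables, 2 were above 0 in both, 3 below and 9 opposite. No member was called in RNA in both. AARS1, at 0.44 in the knockdown, had 0.15 in MDA-LM2 cells, and IARS2 had −0.34 and 0.12, whereas NARS1 had 0.0042 and 0.61.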

How the data were processed

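The deposited values are a normalised signal: the authors aligned reads to 1 mRNA per gene, chosen for the longest coding sequence (Bowtie2 2.3.5 and cutadapt 2.3 are named in the submitters' processing notes), counted them per transcript and scaled RPF and RNA apart by size factors (median of ratios). All RNA values of a library were within 0.05 steps of whole multiples of a step, and no value was under 5 steps, so transcripts below that are not listed; RPF depth in reads is unknown, as is whether the optional correction of stalling peaks was applied. Transcripts were named through GENCODE 44 on hg38 (97.93% and 97.86% matched). Replicates are biological duplicates by the methods of the study; no batch is labelled.

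Log2 of value plus 1 was fitted with limma 3.58.1 in R 4.3.3 (empirical Bayes with a trend, two-sided, Benjamini-Hochberg over all transcripts tested, called under 0.05). RNA used all transcripts listed, and RPF and TE those whose mean reached 10 in RPF and in RNA. Fits were tested on simulated data. Class medians, levels and promoters carry no test. Every called member was given with all its libraries (the 8 with the largest changes where more were called), and where none was called the 2 with the smallest p and means of at least 50; up to 3 called genes per other list were named. Members and lists were chosen with earlier results of these data known. Alternatives were other added values, minimums, scalings, moderation, a replicate block, TE within each replicate, logistic regression, omitted replicates and smaller classes. Words of 30 bases, near the length of a footprint, that are shared with other listed transcripts made up at most 6.15% of any member, and words of 50 bases at most 1.778%.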

Additional observations from a re-analysis of the deposited data

How the results depend on the processing

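Among the values of named members under the alternatives, 209 kept direction and side of the threshold, 8 became called and 30 lost the call, and none turned. In the knockdown the 10 members called in RNA became 4 to 8 with a replicate left out (over all transcripts 401 to 693 calls against 902), where a lone library is assumed to vary like the others. The cytosolic median RNA change was 0.052 with equal totals, 0.095 after quantile normalization and 0.072 to 0.18 with a replicate left out; the mitochondrial one was −0.11 with equal totals and −0.11 to −0.016 with a replicate left out. In knockdown RPF 1 member was called with a minimum mean of 50, equal totals, quantile normalization or robust moderation, and 0 to 1 with a replicate left out; the cytosolic median was 0.32 with the minimum of 50 and 0.17 after quantile normalization. For TE these settings gave 0.018 and 0.056, and logistic regression called 1 member. With the minimum of 50 only 9 of the 21 cytosolic members were tested, so the RPF and TE medians there cover fewer genes. In MDA-LM2, RNA calls were 11 with equal totals and 0 to 17 with a replicate left out (4 of the 17 lower; over all transcripts 725 to 5046 calls against 1796), with a cytosolic median of 0.32 with equal totals, 0.26 after quantile normalization and 0.10 to 0.21, and a mitochondrial one of 0.27 and 0.12 to 0.22. RPF calls were 1 with no filter, 6 with equal totals, 7 after quantile normalization and 0 to 3 with a replicate left out; the cytosolic median was 0.22 after quantile normalization and the mitochondrial one 0.21 to 0.41. TE medians with equal totals were −0.036 and −0.045, and with a replicate left out −0.041 to 0.10 and −0.11 to 0.10. The cause of these shifts was not tested. With the replicate block, calls were 6 in MDA-LM2 RNA (GARS1, RARS1 and CARS2 were added), 4 in MDA-LM2 RPF and 1 in knockdown RPF, and it moved no other count by over 1.5 times; the replicate differences of the lines correlated at 0.23 and 0.044 (RNA and RPF, MDA-LM2) and −0.0038 and 0.028 (knockdown), so the numbers were not taken to pair the samples. Alternatives for class medians over fewer than 5 members are not given. The planned edgeR and DESeq2 fits on whole RNA reads were not run: RNA values lay on a grid, but none was under 5 steps, and the recovery of reads from it did not pass the check set for it. Footprint depth limited the mitochondrial class most: 12 of its 14 members in the knockdown did not reach the minimum mean.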
